A study of Mus musculus with 5 samples.

Results

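Blood vascular endothelial cells were taken from 2 single-cell RNA libraries of inflamed mouse skin. The first library was dermis of wild-type C57BL/6 mice of 10 weeks that had received imiquimod, a TLR7 agonist, for 5 consecutive days on the ear. The second was whole skin with psoriasis-like lesions from untreated K5. Pp6fl/fl mice of 18 weeks, also labelled C57BL/6. In that genotype the keratin 5 promoter is active in basal keratinocytes and the floxed gene is Ppp6c, which encodes the catalytic subunit of protein phosphatase 6. Ppp6c was measured in the vessel cells too, with 54.2 CPM in the imiquimod and 59.2 CPM in the lesional endothelial-dominant cells (both terms are explained below), neither higher nor lower. Barcodes were kept from 200 genes upwards if mitochondrial UMIs stayed below 20%. A kept barcode was a member if it held 4 or more UMIs of Pecam1, Cdh5, Kdr, Flt1, Plvap and Emcn together, no more than 2 UMIs of the lymphatic genes Prox1, Lyve1 and Ccl21a, 0 UMIs of the leukocyte gene Ptprc and under 1% of UMIs from Krt5 and Krt14. A UMI (unique molecular identifier) stands for 1 captured transcript molecule. The rule found 230 members among 7643 kept barcodes, 37 of 4991 in the imiquimod dermis and 193 of 2652 in the lesional skin. The series holds 11942 kept barcodes in 5 libraries. The untreated dermis of 10-week wild-type mice added 6 cells, and both epidermal libraries gave 0.

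Blood endothelial cells line arteries, capillaries and veins and hold the barrier between blood and tissue. In inflamed skin, leukocytes leave the blood mainly through the post-capillary venules, where P-selectin (Selp) and E-selectin (Sele) catch rolling cells, ICAM-1 and VCAM-1 arrest them, and the atypical receptor Ackr1 carries chemokines across the wall. Widened and leaky papillary vessels are a known feature of psoriatic plaques.

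Each group is 1 library, and treatment, genotype, age and skin layer differ between the libraries at once, so none of these can be told apart and no test was possible. Neither the number of mice nor the body site outside the imiquimod group is stated in the labels. All values below describe those libraries. Their intervals are exact 95% intervals for counting error and do not cover the spread between cells, mice or preparations. The imiquimod library held 41258087 UMIs and the lesional library 34376558, with medians of 6663 and 8221 UMIs per kept barcode. The lesional library shared 0 full barcodes with any other library and 126 of its 937 barcode openings of 7 bases with the 480 of the imiquimod library. The imiquimod library shared 479 openings with the non-lesional epidermis. The barcodes of the lesional library thus differ from those of the other 4, although the labels name 1 kit, and this difference cannot be told apart from the groups. Imiquimod members carried no Xist (23 of 37 had Y-linked UMIs only), while the lesional members were 56 with Xist only, 88 with Y-linked UMIs only, 7 with both and 42 with neither. Sex-linked transcripts thus also differed between the libraries, and this cannot be told apart from the groups.

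Not every member was mainly endothelial. In 10 of 37 imiquimod members and 41 of 193 lesional members, the 6 endothelial genes together had no more UMIs than the genes of another skin cell type. Fibroblast genes (Pdgfra, Dcn, Lum) led in all 10 of the imiquimod cells and in 34 of the lesional cells. Genes of mural cells, the contractile cells around vessels, led in 6 and Schwann cell genes in 1. These barcodes held 34.9% of the imiquimod members' UMIs and 33.9% of those of the lesional members. Their summed fibroblast markers (Col1a1, Col1a2, Col3a1, Dcn, Lum, Pdgfra) had a median of 23495 CPM per imiquimod cell and 23770 CPM per lesional cell. In the remaining 27 and 152 cells, called endothelial-dominant here, the medians were 135 and 0 CPM. Summed over all their UMIs the order was the other way, with 166 CPM in the imiquimod and 480 CPM in the lesional cells, where single cells reached 792 and 18606 CPM. The distinction used Pdgfra, Dcn and Lum, which are among the summed fibroblast markers, so these marker levels are partly set by it. It was drawn after the values were seen, and values are for the endothelial-dominant cells unless all members are named. At the rule's threshold, 10 imiquimod and 16 lesional members held exactly 4 endothelial UMIs, of which 3 and 3 were endothelial-dominant. Just outside it, 14 and 37 barcodes held 3 endothelial UMIs, and 2 and 7 of them were endothelial-dominant.

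**Figure D1:**
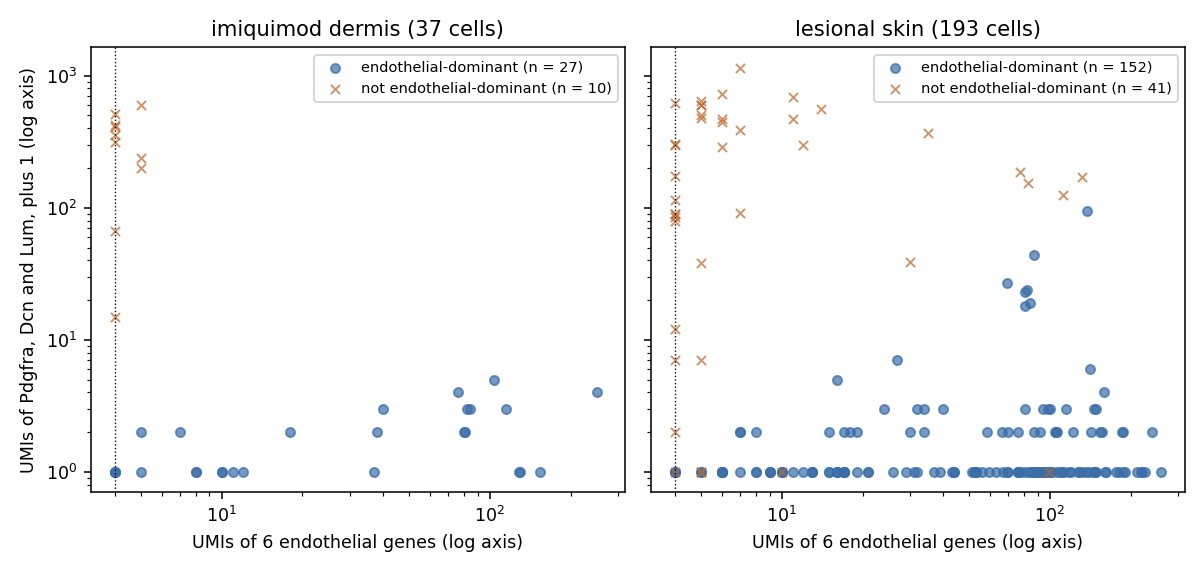
Each point is 1 member, with its UMIs of the 6 endothelial genes on the x axis and its UMIs of Pdgfra, Dcn and Lum plus 1 on the y axis (both log axes), by library; circles are the 27 and 152 endothelial-dominant cells, crosses the 10 and 41 others, and the dotted line is the threshold of 4 UMIs. Most crosses lie at the left, with few endothelial and many fibroblast UMIs.

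The genes of the rule and the given markers chose these cells, so their levels are a description. Plvap, the fenestral diaphragm protein of permeable vessels, had a UMI in 26 of 27 imiquimod and 145 of 152 lesional cells, at 2384 CPM (2221 to 2556) and 2426 CPM (2353 to 2500). With the imiquimod cells given first, Pecam1 (CD31) stood at 810 and 1424 CPM, Cdh5 (VE-cadherin) at 346 and 795 CPM, Kdr (VEGF receptor 2) at 151 and 314 CPM, Flt1 (VEGF receptor 1) at 355 and 728 CPM and Emcn (endomucin) at 488 and 876 CPM. Plvap was thus at a like level in both libraries, and the other 5 were higher in the lesional cells. The label of the cells held on the sum of genes the rule did not use. Of 25 other pan-endothelial genes, all 25 were measured, together at 6160 CPM in the imiquimod and 10128 CPM in the lesional cells. In fibroblasts of the same libraries the list summed to 335 and 875 CPM, with 7 genes measured, so not every gene on it was confined to endothelium. The genes named in the following sentences were near 0 in fibroblasts. Tie1, an orphan receptor of the angiopoietin system, was at 84.3 and 258 CPM against 0.796 and 0.251 CPM in the fibroblast barcodes of the same libraries. Ptprb (VE-PTP) was at 102 and 544 CPM against 0.398 and 0.125 CPM.

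Markers of other cell types differed between the cells of the libraries. All 27 imiquimod cells carried macrophage markers (9 genes, 319 to 3427 CPM per cell, median 1355) and neutrophil markers (6 genes, 838 to 4425 CPM, median 1666). In the lesional skin 109 of 152 cells had none of the first list and 123 none of the second, and both medians were 0. The 278 fibroblast barcodes of the imiquimod library carried them too, with 1660 CPM of Lyz2 and 3885 CPM of S100a8, against 437 and 780 CPM in the imiquimod endothelial cells. Keratinocyte markers (8 genes) were absent from 22 of 27 imiquimod cells and from 64 of 152 lesional cells, where the highest cell reached 11322 CPM. Melanocyte markers were at 0 in every imiquimod cell and in 141 of 152 lesional cells. T cell markers were at 0 in 19 of 27 and 150 of 152 cells. Haemoglobin UMIs lay almost wholly in 1 lesional cell that Scrublet, a doublet caller, also marked. The part of these transcripts in the results below was not tested, and their levels stand beside the genes they touch.

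The share of members among kept barcodes was 0.741% (0.522 to 1.02) for the imiquimod library, 1.15% (0.424 to 2.49) for untreated dermis and 7.28% (6.32 to 8.33) for lesional skin. In both epidermal libraries no member was found. A limit of 3 counts allows shares of up to 0.331% of 905 barcodes in the untreated and 0.104% of 2873 in the non-lesional epidermis, and the exact upper bounds are 0.407% and 0.128%. Endothelial-dominant cells alone made up 5.73% of the lesional and 0.541% of the imiquimod library. Fibroblast barcodes were also a larger share of the lesional library (22% against 5.57%), and leukocyte barcodes a smaller one (32.5% against 60.2%). Shares of recovered cells depend on digestion and on the FACS removal of dead cells, and whole skin was set against dermis. They also depend on the rule. Of barcodes with enough endothelial UMIs for the rule, 29 of 75 imiquimod and 24 of 307 lesional ones held Ptprc UMIs. Of the same barcodes, 15 and 95 were over the lymphatic limit, and a barcode could fail both criteria. The part of these criteria in the shares and in the levels below was not tested.

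Venular cells, defined by at least 2 UMIs of Selp and Ackr1 together, were the larger group in the lesional skin. They were 110 of 152 cells there (72.4%, 64.5 to 79.3) and 12 of 27 in the imiquimod dermis (44.4%, 25.5 to 64.7). Among all members the shares were 63.2% and 37.8%. With 1 UMI of Selp or Ackr1 as the limit they were 71.0% and 62.2%. The definition needs UMIs, and venular imiquimod cells were deeper (median 16507 UMIs) than the other imiquimod cells (3002). Each cell was then thinned to 2000 UMIs, which left out 16 shallower lesional and 7 shallower imiquimod cells. The shares were 64.0% (55.3 to 72.0) in the lesional skin and 45% (23.1 to 68.5) in the imiquimod dermis, whose intervals overlap. The remaining 15 imiquimod and 42 lesional cells had fewer than 2 such UMIs, and 5 and 8 of them had 1. Among these other cells, 3 of 15 imiquimod and 18 of 42 lesional cells were arterial-marked, with at least 2 UMIs of Gja4, Gja5, Hey1, Sema3g and Bmx. All 5 endothelial-dominant cells of the untreated dermis were venular.

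Gene levels were compared on UMIs summed over the cells of a library and scaled to CPM, the UMIs of a gene per 1000000 UMIs of those cells. Genes count as measured from 10 UMIs in all and 10 CPM in 1 of the libraries upwards. They are called higher or lower if the whole interval of the fold lies past 1.5. Over all members, 1445 of 8909 measured genes were higher in the lesional skin (16.2%) and 495 lower (5.56%). In the endothelial-dominant cells 853 of 8474 were higher (10.1%) and 359 lower (4.24%). The median log2 ratio of lesional over imiquimod, with a pseudocount of 5 CPM, was 0.38 over all measured genes of those cells. It was 0.55 in fibroblasts and 0.47 in leukocytes of the same pair of libraries, so most genes sat above 0 in each class. Scaling by the median of ratios removed this offset, shifting the all-gene median of all members from 0.48 to 0.02, and turned the split of 1445 higher and 495 lower into 584 higher and 999 lower. In the endothelial-dominant cells it turned 853 higher and 359 lower into 377 higher and 727 lower. For each list of genes compared below in all endothelial-dominant cells, the median is to be read against 0.38. The counts are to be read against 10.1% higher and 4.24% lower.

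**Figure D2:**
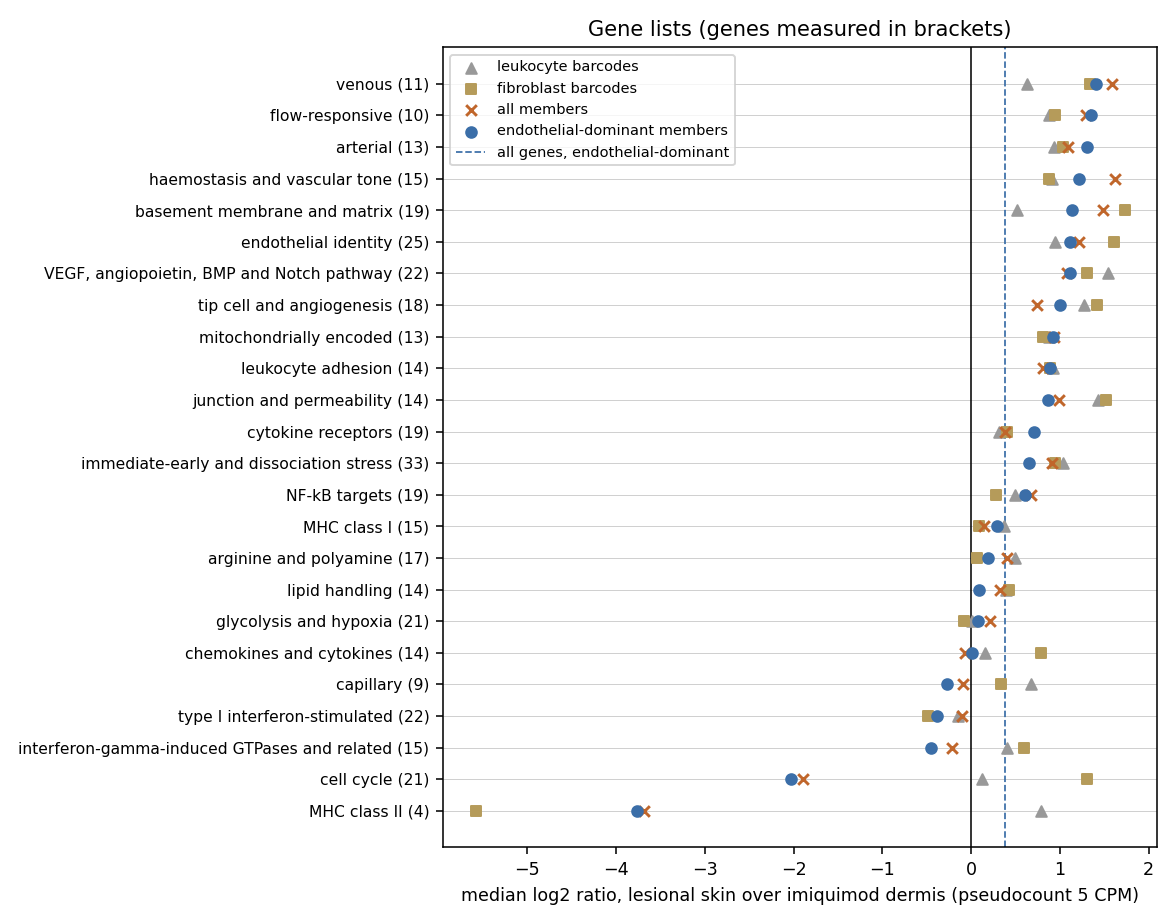
Median log2 ratio of lesional skin over imiquimod dermis (x axis, pseudocount 5 CPM) for the gene lists other than the cell type markers (y axis), in endothelial-dominant members (circles), all members (crosses), fibroblast (squares) and leukocyte barcodes (triangles); the dashed line is the median of all measured genes in endothelial-dominant members, 0.38. Venous, flow-responsive and arterial genes lie to its right, and of the lists drawn, cell cycle and MHC class II genes lie lowest in the endothelial cells.

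Of the lists of vessel genes, the venous one had the highest median in the lesional cells. Of its 11 genes, all measured, 6 were higher and 0 lower (median 1.41). In fibroblasts of the same libraries 6 of its 8 measured genes were higher and 1 lower (median 1.34). In leukocytes 2 of 5 were higher and 1 lower (median 0.63). Selp, which chose the venular cells, stood at 864 CPM (767 to 970) in the imiquimod cells and 2888 CPM (2809 to 2968) in the lesional cells. Sele was at 172 CPM (130 to 222) in the imiquimod cells, with a UMI in 9 of 27, and at 718 CPM (679 to 759) in the lesional cells, with a UMI in 93 of 152. It was 4.19-fold higher in the lesional cells (3.21 to 5.56). Vwf, the platelet-binding glycoprotein stored with P-selectin, was 3.0-fold higher (2.35 to 3.87), from 211 to 632 CPM. Nr2f2, the transcription factor of venous identity, was at 111 CPM in the imiquimod and 304 CPM in the lesional cells. In the same order, Slco2a1, a prostaglandin transporter, was at 397 and 1237 CPM, and Ephb4, the venous ephrin receptor, at 39.1 and 141 CPM. All 6 of these were thus higher in the lesional skin, while the fibroblasts' ratios for 3 of them went the same way (Nr2f2 from 15.9 to 56.5, Slco2a1 from 15.5 to 66.6 and Ephb4 from 6.76 to 24.7 CPM). Sele, Selp and Vwf did not exceed 0.752, 7.16 and 4.38 CPM in fibroblasts of either library.

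The other venous genes did not pass. Again with the imiquimod cells first, Ackr1 was level, at 656 CPM (572 to 749) and 629 CPM (593 to 668). Icam1 was at 665 and 969 CPM, a 1.46-fold difference (1.26 to 1.68). Vcam1 was at 33.1 and 77.4 CPM, 2.34-fold (1.27 to 4.79), in 5 and 37 cells. Lrg1, a secreted glycoprotein of inflamed vessels, was at 2421 and 1871 CPM, and Il1r1, the interleukin-1 receptor, at 84.3 and 186 CPM. At a fixed 2000 UMIs per cell, Sele was seen in 10% of imiquimod cells (2 of 20, 1.23 to 31.7) and 44.9% of lesional cells (61 of 136, 36.3 to 53.6), against 33.3% and 61.2% before thinning. Fibroblasts thinned alike gave 0% and 0.181%. Vwf was seen in 25% (8.66 to 49.1) and 60.3% (51.6 to 68.6). Icam1 was seen in 40% (19.1 to 63.9) and 58.8% (50.1 to 67.2), with 13.4% and 21.4% in fibroblasts. Ackr1 was seen in 50% and 45.6%. The thinned shares of Sele and Vwf did not overlap between the libraries, and those of Icam1 and Ackr1 did.

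**Figure D3:**
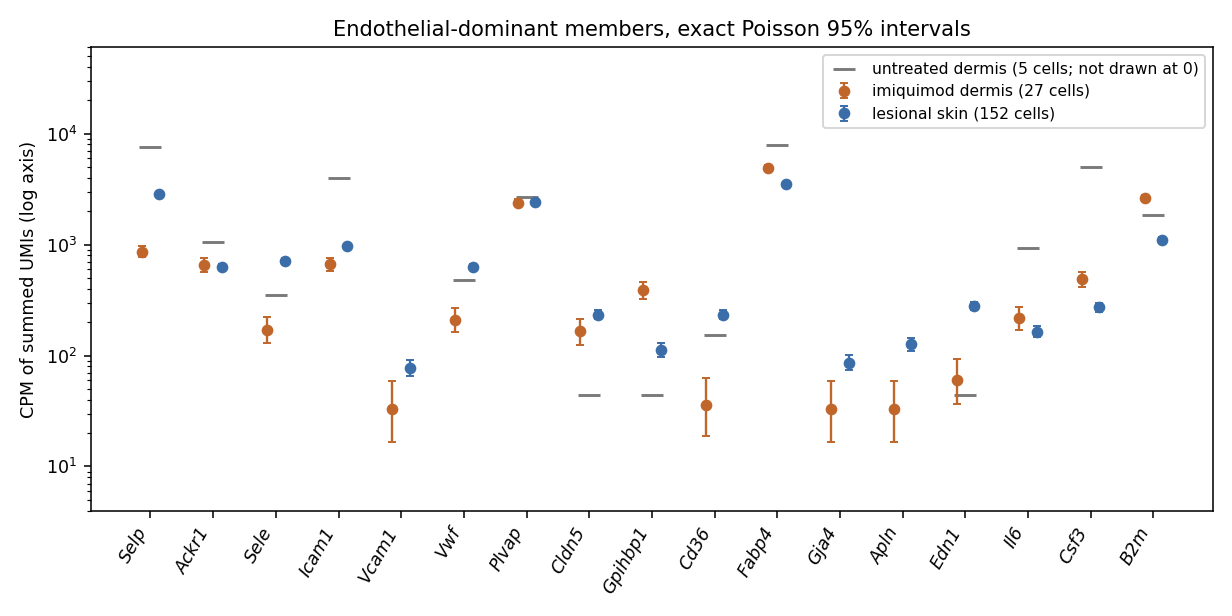
CPM of summed UMIs (y axis, log axis) of 17 endothelial genes (x axis) in the endothelial-dominant cells of the imiquimod dermis (27 cells) and the lesional skin (152 cells), with exact Poisson 95% intervals, and in 5 cells of the untreated dermis (dashes without interval, not drawn at 0). Selp, Sele, Vwf, Cd36 and Edn1 lie higher in the lesional cells, Gpihbp1, Csf3 and B2m lower, and Plvap and Ackr1 level. The order of Csf3 turns without the imiquimod cell that holds most of its UMIs.

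Among 14 measured genes of leukocyte adhesion, 5 were higher and 0 lower (median 0.89, the same as in the fibroblasts). Here and in the following gene groups, pairs of levels and of cell numbers give the lesional library first unless a sentence names the order. Besides the selectins the higher genes were Podxl (podocalyxin, 277 and 66.2 CPM), the junctional adhesion molecule Jam2 (308 and 138 CPM) and Glycam1, a mucin-like ligand of L-selectin known from high endothelial venules. Glycam1 had 0 UMIs in the 27 imiquimod cells and 77.4 CPM (64.9 to 91.6) in the lesional skin, at least 8.57-fold higher. Its UMIs lay in 17 lesional cells, 22.1% of them in 1 cell. Madcam1, the other addressin on the list, was at 18.1 CPM in the imiquimod cells and 0 in the lesional cells, too few UMIs to be measured.

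Of 9 measured capillary genes 1 was higher and 1 lower (median -0.27), against 10.1% higher and 4.24% lower over all measured genes. The median depended on the kind of cell. Among venular cells alone it was -0.34, against 0.34 over all genes there. Among the other cells alone it was 0.62, against 0.51 over all genes there. Gpihbp1, which anchors lipoprotein lipase on capillary endothelium, was 3.45-fold lower (2.74 to 4.32) in the lesional cells, at 113 CPM (97.5 to 130) against 388 CPM (324 to 461). Cd36, a fatty acid and thrombospondin receptor, was 6.47-fold higher (3.67 to 12.6), at 234 against 36.1 CPM. Its UMIs lay in 42 lesional and 6 imiquimod cells. Fabp4, a fatty acid carrier, was at 3524 and 4941 CPM, Car4 at 106 and 196 CPM (50.8% of the imiquimod UMIs in 1 cell) and Rgcc at 71.7 and 87.3 CPM, and none of these 3 passed. Lipid handling showed 2 higher and 2 lower genes out of 14. Fabp5, another fatty acid carrier, was 2.46-fold lower (2.0 to 3.02), at 171 against 421 CPM, and Lpl, at 41.5 against 3.01 CPM, had 54.8% of its lesional UMIs in 1 cell. The list had a median of 0.09 that became -0.34 under median of ratios scaling.

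Of 13 measured arterial genes 5 were higher (median 1.31) and none was lower. Sema3g, a guidance molecule of arterial endothelium, was at 50.1 CPM in the lesional and 3.01 CPM in the imiquimod cells, from 15 cells and 1 cell. Jag1, a Notch ligand, was at 62.6 and 6.02 CPM, with 38.7 and 3.58 CPM in fibroblasts. Efnb2 (ephrin-B2) was at 94.5 and 12 CPM, and Cxcl12 at 201 and 78.3 CPM. Gja4 (connexin 37) was at 86.5 CPM (73.3 to 101) and 33.1 CPM (16.5 to 59.3) and did not pass, with UMIs in 15 and 3 cells. In all members the mean of per-cell CPM reversed its direction. Gja5, Bmx and Esm1 were at 0 UMIs in the imiquimod cells and at 12, 10.8 and 12 CPM in the lesional cells, with intervals that reached 1.5-fold.

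Sprouting genes had 5 of 18 measured higher (median 1.01, against 1.42 in fibroblasts and 1.28 in leukocytes). Pdgfb, the growth factor that recruits pericytes, was 4.09-fold higher (2.48 to 7.23), at 197 against 48.2 CPM, in 96 and 10 cells. Apln, the apelin ligand of tip cells, was at 127 CPM (111 to 145) in the lesional and 33.1 CPM in the imiquimod cells. Its UMIs lay in only 19 of 152 lesional cells. Angpt2, the antagonist ligand of Tek, was at 83.7 and 69.2 CPM and did not pass. Col4a1, a basement membrane collagen, was 2.03-fold higher (1.76 to 2.34), at 1299 against 641 CPM, with 598 against 171 CPM in fibroblasts. For some of these genes the levels differed between lesional cells grouped by sex-linked transcripts, where sex and mouse cannot be told apart. In the 47 cells with Xist only, Apln was at 20.6 CPM, Angpt2 at 17.2 CPM and Col4a1 at 703 CPM. In the 65 cells with Y-linked UMIs only they were at 192, 120 and 1732 CPM. Selp was at 2074 and 2921 CPM in the same groups. With the lesional members of Xist only, Apln was lower than in the imiquimod members (log2 ratio -0.59).

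In the pathways of VEGF, angiopoietins, BMP and Notch 10 of 22 measured genes were higher and none lower (median 1.11, against 1.31 in fibroblasts and 1.55 in leukocytes). Tek (TIE2), the angiopoietin receptor, was at 183 CPM (163 to 204) in 112 of 152 lesional cells and 27.1 CPM (12.4 to 51.4) in 6 of 27 imiquimod cells. That is 6.74-fold (3.51 to 14.9). Bmpr2, the type II BMP receptor, was at 400 and 72.3 CPM and Notch1 at 180 and 45.2 CPM. Smad7, a feedback inhibitor of TGF-beta and BMP signalling, was at 114 and 15.1 CPM. These genes and Tek were higher in fibroblasts too, Tek at 21.3 against 0.796 CPM, Bmpr2 at 145 against 50.9 CPM, Notch1 at 43.0 against 6.76 CPM and Smad7 at 75.3 against 11.9 CPM. Notch4 (46.7 and 33.1 CPM) and its ligand Dll4 (63.7 and 27.1 CPM) did not pass. Among pan-endothelial genes 13 of 25 were higher and 0 lower (median 1.11). Ptprb was 5.32-fold higher (3.78 to 7.72), Sox18, a transcription factor of vessel development, 3.75-fold (2.74 to 5.26), and Tie1 3.06-fold (2.09 to 4.65). In fibroblasts and leukocytes these 3 genes stayed at or below 5.39 CPM, the level of Sox18 in lesional fibroblasts.

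Of 15 genes of coagulation and vessel tone, 8 were higher and 0 lower (median 1.21). Edn1, the vasoconstrictor endothelin-1, was at 280 and 60.2 CPM, and at 210 and 32.6 CPM without the top cell of each library. Nt5e (CD73), which forms adenosine, was at 170 and 33.1 CPM. Thbd (thrombomodulin) was at 147 and 45.2 CPM, and Nos3, the endothelial nitric oxide synthase, at 146 and 60.2 CPM. Edn1 (16.2 against 5.57 CPM) and Thbd (42.5 against 9.15 CPM) were higher in lesional fibroblasts as well. Of 10 flow-responsive genes 6 were higher (median 1.35). The shear stress factor Klf4 was at 515 and 135 CPM, with 480 and 114 CPM in fibroblasts, while its relative Klf2 was at 832 and 644 CPM, 1.29-fold (1.12 to 1.5). Among 14 junction and permeability genes 5 were higher (median 0.87, against 1.52 in fibroblasts and 1.43 in leukocytes). The water channel Aqp1 was among the higher ones, at 2544 and 1349 CPM. Cldn5, the tight junction claudin of endothelium, was at 233 and 166 CPM and did not pass. Of 19 genes of the basement membrane and matrix, 13 were higher (median 1.13, against 1.73 in fibroblasts). The fibroblast markers moved the same way in these endothelial-dominant cells, with 3 of 5 measured higher, 0 lower and a median of 1.45, and their part in the matrix values was not tested. The laminin chain Lamb1 was at 157 and 24.1 CPM and Hspg2 (perlecan) at 617 and 178 CPM. Fn1 (fibronectin), at 63.2 and 3.01 CPM, was more abundant in the fibroblasts (1543 and 217 CPM). Sparc went the other way without passing, at 2360 and 3592 CPM.

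Of 14 measured chemokines and cytokines 3 were higher and 5 lower, with a median of 0.01 that became -0.33 under median of ratios scaling. Csf3 (G-CSF), which drives the release of neutrophils, was 1.80-fold lower (1.5 to 2.16) in the lesional cells, at 272 against 491 CPM. In the imiquimod cells 58.9% of its UMIs lay in 1 cell. Without that cell the imiquimod level was 214 CPM, below the lesional level, so the direction turned. Il6 was at 164 CPM (146 to 184) and 217 CPM (170 to 273), and Cxcl1 at 290 CPM (266 to 317) and 256 CPM (204 to 316), neither passing. Ccl2, a monocyte chemoattractant, was at 19.9 and 60.2 CPM, and Cxcl2, a neutrophil chemoattractant, at 22.8 and 163 CPM. Both were called lower. For Ccl2 the direction turned with at least 8 endothelial UMIs per member (log2 ratio 1.99) and in thinned endothelial-dominant cells (2.44). Imiquimod fibroblasts held 245 CPM of Ccl2 and 824 CPM of Cxcl2, and lesional fibroblasts 532 and 140 CPM, so Ccl2 went the other way there. Il1b, at 0.569 and 111 CPM, is a myeloid cytokine that the imiquimod fibroblasts also carried (411 against 2.25 CPM). Ackr3, a scavenger receptor of Cxcl12, was at 51.8 and 6.02 CPM. Cxcl10, an interferon-induced chemokine, was 10.4-fold higher (4.0 to 38.5), at 125 against 12 CPM, in 25 and 2 cells, and fibroblasts held 147 against 18.7 CPM. Among all members Cxcl5 was at 8.28 CPM in the lesional and 1118 CPM in the imiquimod skin, but at 0.569 and 12 CPM in the endothelial-dominant cells. Of 19 targets of NF-kB, Sele and Nfkb1 were higher and Ccl2 was lower (median 0.61).

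Of 19 measured cytokine receptors 2 were higher and 0 lower (median 0.70), Il6st and Ifngr1 (150 and 60.2 CPM). Il6st, the shared gp130 subunit of the IL-6 family receptors, was 4.80-fold higher (3.73 to 6.28), at 911 against 190 CPM, and was seen in 135 of 152 lesional and 11 of 27 imiquimod cells. It was at 262 against 87.5 CPM in fibroblasts. Il17ra, the shared IL-17 receptor subunit, was at 14.2 and 6.02 CPM and did not pass. Tlr7, the receptor of imiquimod, had 0 UMIs in the cells of both libraries, whereas leukocytes held 10.2 CPM in the imiquimod and 8.31 CPM in the lesional library.

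Interferon-stimulated genes were among the few groups with more lower than higher calls in the lesional cells. Of 22 type I genes 5 were lower and 1 higher (median -0.38). Bst2 (tetherin) was 2.57-fold lower (2.14 to 3.07), at 218 against 560 CPM. Ifi27l2a was at 6.26 and 90.3 CPM, in 7 and 15 cells. Rtp4 was at 39.8 and 160 CPM, and Irf7, the master factor of the type I response, at 18.2 and 66.2 CPM. Fibroblasts were lower for 3 of these as well (Bst2 59.4 against 115, Rtp4 13.3 against 29.8 and Irf7 12.8 against 29.8 CPM), with a list median of -0.49. The 1 higher gene, Rsad2 (viperin), was at 88.2 against 9.03 CPM, with 74.8% of its lesional UMIs in 1 cell and 22.2 CPM without it. Isg15 was at 149 and 93.3 CPM and did not pass. On the interferon-gamma list 15 genes were measured, with Cxcl10 higher and the GTPase Iigp1 2.14-fold lower (1.64 to 2.77), at 118 against 253 CPM (median -0.45). Iigp1 did not exceed 13.8 CPM in fibroblasts.

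In the MHC class I list 4 of 15 genes were lower and 1 higher, with a median of 0.30 that became -0.20 under median of ratios scaling. B2m, the light chain of class I, was 2.37-fold lower (2.19 to 2.57) in the lesional cells, at 1109 against 2628 CPM. It was also lower in fibroblasts (667 against 1734 CPM) and leukocytes (1617 against 3007 CPM). Psmb8, Psmb9 and Psmb10, the immunoproteasome subunits, were at 120 and 337 CPM, 33.0 and 87.3 CPM, and 51.2 and 160 CPM. The class Ib gene H2-Q6, the higher one, was at 127 and 24.1 CPM, and reads of such near-identical genes can be split between copies. The heavy chains H2-K1 (939 and 575 CPM) and H2-D1 (1595 and 1289 CPM) did not pass. The 4 measured MHC class II genes were all lower (median -3.77). Cd74, the invariant chain, was at 9.68 CPM in the lesional and 247 CPM in the imiquimod cells, and H2-Aa at 3.98 and 138 CPM. Such genes are typical of professional antigen-presenting cells. All imiquimod cells carried macrophage and neutrophil transcripts, and fibroblasts of that library held 494 CPM of H2-Aa against 3.38 CPM in the lesional fibroblasts. Their part in the class II values was not tested.

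Cell cycle genes were lower in 18 of 21 measured and higher in none (median -2.03), whereas in fibroblasts 16 of 25 were higher (median 1.30). Part of the imiquimod level came from few cells, but the median of the list's level per cell was also higher in the imiquimod cells. Over 5000 CPM of the 28 cell cycle genes together were found in 5 of 27 imiquimod cells (18.5%, 6.30 to 38.1) and 1 of 152 lesional cells (0.658%, 0.0167 to 3.61), a limit chosen after the values were seen. None of these 6 cells was marked by Scrublet. Mki67 was at 48.2 CPM in the imiquimod cells, in 5 of them, with 68.8% of its UMIs in 1 cell and 16.2 CPM without it. Its lesional level was 10.8 CPM, in 6 cells. Stmn1, a microtubule regulator of dividing cells, was at 256 CPM in 11 imiquimod cells and 30.2 CPM in 19 lesional cells. Ccnb2 (cyclin B2) was at 108 CPM in 2 imiquimod cells, 83.3% of it in 1, and at 4.55 CPM in the lesional cells.

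Of 33 heat shock and immediate-early genes 14 were higher and 1, Cebpb, lower (median 0.65). Hspa1b, an inducible HSP70, was at 8067 CPM in the lesional and 376 CPM in the imiquimod cells, and Hspa1a at 9901 and 2171 CPM. The immediate-early gene Jun was at 2367 and 744 CPM. Both HSP70 genes were higher in lesional fibroblasts (Hspa1b 5562 against 482 CPM) and leukocytes (Hspa1b 11903 against 1034 CPM). In 99 of 152 lesional cells and 4 of 27 imiquimod cells the list exceeded 20000 CPM, a limit also chosen after the values were seen. Such genes are known to respond to tissue digestion, and handling and tissue cannot be told apart here. All 13 mitochondrially encoded genes were measured, 10 of them higher and mt-Nd1 lower (median 0.92, 0.81 in fibroblasts). Glycolysis and hypoxia had 2 higher and 2 lower genes of 21 (median 0.08). Ldha (lactate dehydrogenase) was 2.20-fold lower (1.90 to 2.54), at 364 against 801 CPM, and lower in fibroblasts as well (268 against 512 CPM). Arginine and polyamine genes had 2 higher of 17 (median 0.19). The glycolysis and arginine medians became -0.28 and -0.18 under median of ratios scaling.

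**Figure D4:**
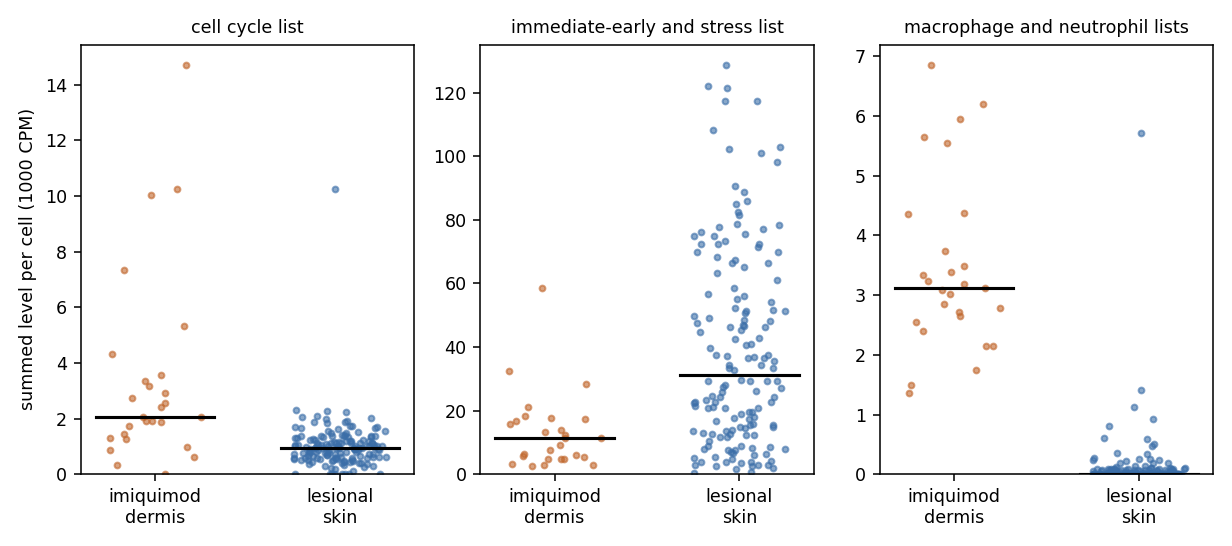
Summed level per endothelial-dominant cell (y axis, units of 1000 CPM) of the cell cycle list, the immediate-early and stress list and the 2 leukocyte marker lists; points are cells of the imiquimod dermis (27) and the lesional skin (152), and black lines are medians. Imiquimod cells carry leukocyte markers throughout, 5 of them and 1 lesional cell exceed 5000 CPM of the cell cycle list, and 99 lesional cells exceed 20000 CPM of the stress list.

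The genes with the largest ratios were taken from those with at least 50 CPM in the higher library, an interval wholly beyond 2-fold and no other cell class of that library at over 10 times the level. The 12 highest in the lesional endothelial-dominant cells included Prl2c5, Hspa1b, Mical3, Glycam1, Hspa4l, Nts, Kcnq1ot1, Npy, Mgp and Zfp638. Of the 12, 8 had the same call in fibroblasts or leukocytes. Mgp, an inhibitor of calcification and BMP signalling, was 12.8-fold higher (9.52 to 17.5), at 1730 against 135 CPM, in 76 and 13 cells, while fibroblasts were level (851 and 881 CPM). Prl2c5, a proliferin of the prolactin family, was at 181 CPM in the lesional cells and 0 UMIs in the imiquimod cells. It lay in 15 cells, 47.8% of it in 1, and 96.3 CPM remained without that cell. Mical3 was at 91.6 CPM over 77 lesional cells and 0 UMIs in the imiquimod cells. The neuropeptide genes Npy and Nts rested on few cells. Npy had 92.1% of its UMIs in 1 lesional cell, and without it the level fell from 64.9 to 5.17 CPM. Nts had 65.1% in 1 cell and fell from 71.7 to 25.2 CPM.

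The 12 lowest were Ccl6, Ccl3, Slpi, Ifitm1, Ccnb2, Clec4e, C1qb, Ccl7, Ccl9, Cenpa, Laptm5 and Ifi27l2a, of which 10 had the same call in fibroblasts or leukocytes. C1qb and Laptm5 are genes of macrophages and other leukocytes. C1qb stood at 96.3 CPM in 15 of 27 imiquimod cells and at 3.98 CPM in the lesional cells. Ccl6 was at 145 CPM in 21 imiquimod cells and at 0 UMIs in the lesional cells. The macrophage and neutrophil lists move the same way as C1qb, Laptm5 and the chemokines here, and their part was not tested. Over all members, the 12 highest were Prl2c5, Mfap4, Nov, Hspa1b, Prg4, Cx3cr1, Mgp, Fn1, Glycam1, Kcnq1ot1, Thbs1 and Pi16, and 6 of them passed the same criteria in the endothelial-dominant cells. The 12 lowest were Cxcl5, Ccl6, Ptx3, Ccl3, Ccl4, Il19, Saa3, Ccnb2, C1qb, Cenpa, Cdk1 and Ube2c, of which 7 passed there. Mfap4 and Pi16, both known from fibroblasts, were among those that no longer passed.

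Venular and other endothelial cells were then compared within each library, where the difference of preparation is shared. Of 3849 genes measured in both libraries, 27 were higher in venular cells in both (0.701%) and 11 lower in both (0.286%). Selp and Ackr1 defined the groups. In the imiquimod dermis 12 venular cells were set against 15 others, and in the lesional skin 110 against 42. Of 9 other venous genes 6 were higher in venular cells of both libraries. Sele stood at 252 and 32.9 CPM in venular and other imiquimod cells (7.64-fold, 2.81 to 29.1) and at 875 and 36.5 CPM in the lesional cells (24-fold, 13.7 to 46.5). Nr2f2 was at 157 and 32.9 CPM and at 358 and 70.0 CPM. Csf3 had the highest of the smaller ratios, 18.2-fold (7.65 to 56.9) and 12-fold (6.26 to 26.4). It stood at 750 and 41.2 CPM in the imiquimod cells and at 328 and 27.4 CPM in the lesional cells, and without the top venular imiquimod cell at 323 CPM. Bst1, an ectoenzyme of the CD38 family, was 7.79-fold and 4.11-fold higher. Hdc, the histamine-forming enzyme, was 11.5-fold (1.84 to 478) and 6.98-fold (2.31 to 34.5) higher, with a single UMI in the other imiquimod cells. The metal-binding protein gene Mt2 was at 1248 and 280 CPM and at 212 and 15.2 CPM. Bace2, Ctnnal1, Il6st and Mustn1 completed the 10 named genes.

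Some capillary and arterial genes were lower in venular cells. Of 7 capillary genes measured in both libraries 3 were lower in venular cells of both, and of 5 arterial genes 2 were. The arterial median log2 ratio of venular over other cells was 0.51 in the imiquimod dermis and -2.17 in the lesional skin. Gpihbp1 was at 128 and 840 CPM in venular and other imiquimod cells and at 70.7 and 295 CPM in the lesional cells. Rgcc was at 9.49 and 222 CPM and at 36.4 and 225 CPM. Cldn5 was at 80.7 and 313 CPM and at 65.1 and 965 CPM, the latter 14.8-fold. Cxcl12 was at 19.0 and 181 CPM and at 59.5 and 819 CPM. Gja4 was at 0 and 90.5 CPM and at 12.6 and 408 CPM, and Notch4, the endothelial Notch receptor, at 9.49 and 74.1 CPM and at 23.1 and 149 CPM. Rbp7 (0 and 412 CPM, and 9.80 and 94.4 CPM), Cd36, Btg2 and Itm2c completed the 10. In the imiquimod dermis 42 of the 46 Btg2 UMIs of the other cells lay in 1 cell, and without the top cell of each group Btg2 turned, to 121 CPM in venular and 37.5 CPM in other cells. The direction of the other 19 named genes was kept there without the top cells, and of all 20 in the lesional skin. Fabp4 did not separate the groups, at 5212 and 4470 CPM and at 3638 and 3026 CPM. Plvap was 1.55-fold and 1.59-fold higher in venular cells, with intervals that reached below 1.5-fold.

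**Figure D5:**
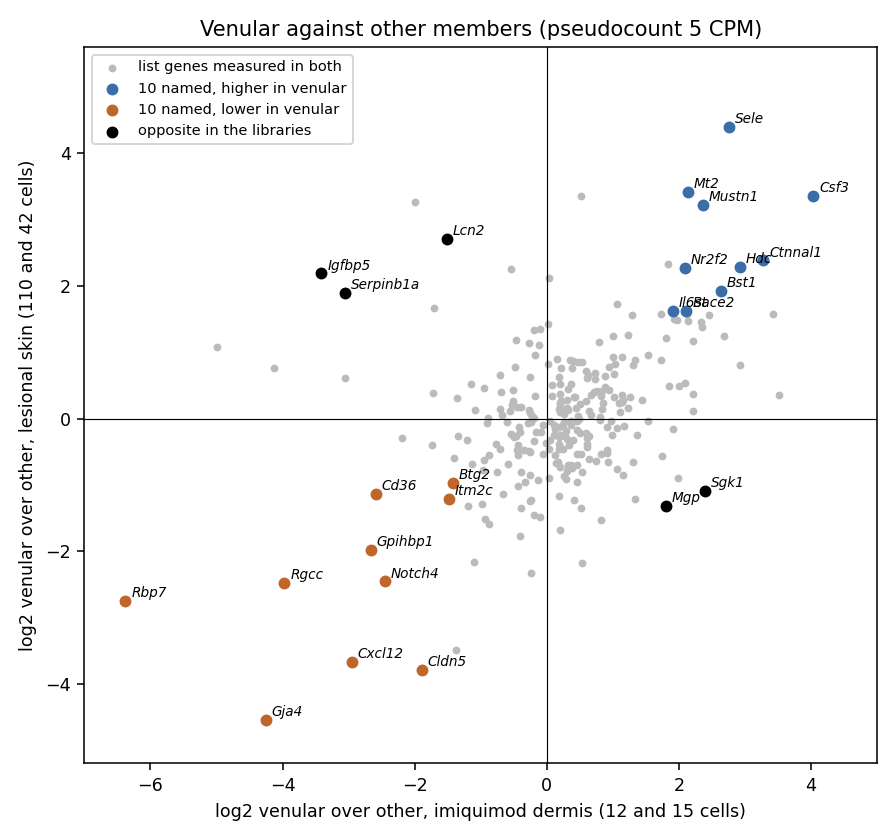
log2 ratio of venular over other endothelial-dominant cells in the imiquimod dermis (x axis) and the lesional skin (y axis), pseudocount 5 CPM; grey points are list genes measured in both libraries, blue and orange the 10 genes named as higher and lower in venular cells, and black the 5 genes with opposite calls. Sele, Csf3 and Mt2 lie at the upper right and Gja4, Rbp7 and Cxcl12 at the lower left.

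Since venular cells were a larger share of the lesional library, the libraries were also compared within each kind of cell, a comparison added after the values were seen. Among venular cells 480 of 8208 genes were higher in the lesional skin (5.85%) and 221 lower (2.69%). Among the other cells 524 of 5831 were higher (8.99%) and 282 lower (4.84%). Sele was 3.48-fold higher (2.64 to 4.67) in lesional venular cells. The other cells held too few Sele UMIs to compare, 12 in 4 of 42 lesional cells (36.5 CPM) and 4 in 2 of 15 imiquimod cells (32.9 CPM). Selp was 2.61-fold higher in lesional venular cells, at 3547 against 1358 CPM, and Vwf was at 722 against 285 CPM. Selp took part in defining these cells, so its values here are a description. Of the 9 venous genes other than Selp and Ackr1, 5 were higher in lesional venular cells and 0 lower (median 1.23). In venular cells Csf3 was lower in the lesional skin, at 328 against 750 CPM, a value that falls to 323 CPM in the imiquimod cells without their top cell. Of 8 arterial genes measured in venular cells none was higher, with a median of 1.07 against 0.34 over all genes there. In the other cells 11 of 13 were higher, with a median of 2.38 against 0.51 over all genes. The median thus lay above that of all genes in both kinds of cell. In the other cells Efnb2 was at 338 against 24.7 CPM, Sema3g at 247 against 8.23 CPM, Gja4 at 408 against 90.5 CPM, Fbln5 at 377 against 57.6 CPM and Unc5b at 149 against 24.7 CPM. Arterial-marked cells, whose definition uses Gja4 and Sema3g, were 18 of the 42 other lesional and 3 of the 15 other imiquimod cells, and their part in these values was not tested.

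The untreated dermis gave 5 endothelial-dominant cells, too few for a comparison, all with venular genes. Selp stood there at 7563 CPM, Csf3 at 5006 CPM, Icam1 at 3957 CPM, Cxcl1 at 3344 CPM and Il6 at 940 CPM. Sele was at 350 CPM and Gpihbp1 at 43.7 CPM. These levels are a description of 5 cells.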

How the data were processed

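Deposited values are UMI counts per gene (31053 genes) and barcode, not normalized. Per the labels' protocols, skin was digested with enzymes, FACS removed dead cells, and a Chromium 3′ v3 kit was used. CASAVA, Cell Ranger and mm10 are named in the submitters' processing notes, and per the file headers the software version is 3.0.2. Cell calling is not described there. Members, the 36 gene lists and the alternatives were chosen with earlier results of these data known. From the counts, UMIs of members were summed per library and scaled to CPM (Python 3.11.15, scipy 1.17.1). Intervals are exact at 95% (Poisson for CPM, Clopper-Pearson for shares, conditional binomial for ratios). A fold against 0 UMIs is a bound from 3 counts over the group. Comparison classes were set by marker UMIs. Scrublet (scanpy 1.11.5) marked 1 imiquimod and 9 lesional members, which were kept, and their removal was an alternative. Besides the genes with the largest ratios, overall and per list, a set of vessel markers was always given. Predicted, ribosomal, mitochondrial, haemoglobin and sex-linked genes were not ranked. Some ranked or listed genes are not reported here. The ratio step was tested on simulated Poisson counts, which hold no spread between cells, so that spread was not tested. Leaving out a replicate was not possible with 1 library per group.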

Additional observations from a re-analysis of the deposited data

Results flagged for a closer look

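In the untreated dermis, which was not part of the comparison, the member rule found 6 of 521 kept barcodes, or 1.15% (0.424 to 2.49). That interval spans the 0.576% that a count of 0 would allow. Fibroblast genes led in 1 of the 6.

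A difference between venular and other cells was called in opposite directions in the 2 libraries for 5 genes. This difference between the libraries was not tested. Igfbp5 had a log2 ratio of -3.41 in the imiquimod dermis and 2.19 in the lesional skin, Lcn2 of -1.51 and 2.71, and Serpinb1a of -3.05 and 1.90. Mgp had 1.81 and -1.32, and Sgk1 2.39 and -1.10. The imiquimod values of the first 3 rested on few of the 15 other cells: Igfbp5 had 12 UMIs in 2 of them, 9 in 1 cell, Lcn2 34 UMIs in 5, 20 in 1 cell, and Serpinb1a 14 UMIs in 3, 12 in 1 cell. Without that cell Igfbp5 was at 25.1 CPM, Lcn2 at 117 CPM and Serpinb1a at 21.8 CPM in the other imiquimod cells. In the lesional skin Igfbp5 lay in 8 of 110 venular cells and Serpinb1a in 61. For Mgp, 404 of 1108 UMIs of the other lesional cells lay in 1 cell, and 2359 CPM remained without it. Sgk1 lay in 10 of 12 venular and 3 of 15 other imiquimod cells and in 80 of 110 and 27 of 42 lesional cells.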

How the results depend on the processing

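Of 723 list medians under the alternatives, 622 were counted as the same, 95 as moved and 6 as reversed. Those counted as the same include changes of sign, so 6 is not a count of all sign changes. The MHC class I median of all members went from 0.15 to -0.30 under median of ratios scaling and was counted as the same. Of 1491 values of named genes, 889 were counted as the same, 587 as moved and 15 as reversed. The share of members moved to 1.02% and 0.421% of the imiquimod dermis and to 8.67% and 5.69% of the lesional skin with at least 3 and at least 8 endothelial UMIs, and the lesional share to 5.81% of all deposited barcodes and to 5.73% for endothelial-dominant members. With 1 UMI of Selp or Ackr1, venular members were 62.2% of the imiquimod and 71.0% of the lesional members. The lesional share was 72.2% with at least 8 endothelial UMIs, 72.4% for endothelial-dominant members and 52.8% after thinning.

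The number of genes higher in lesional than imiquimod members, 1445, became 873 with at least 8 endothelial UMIs, 661 in venular members, 853 in endothelial-dominant members and 775 in those with Y-linked UMIs only. Thinning, which leaves fewer UMIs, gave 203 and, for endothelial-dominant members, 110. Median of ratios scaling gave 584 and 377. The mean of per-cell CPM, which calls genes without an interval, gave 4605 and 4410. The number of lower genes, 495, became 257 in venular members, 303 in endothelial-dominant members with Y-linked UMIs only, 197 and 136 after thinning, 999 under median of ratios scaling, and 1654 and 1758 with per-cell CPM.

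Some log2 ratios reversed, and the cause was not tested. With at least 8 endothelial UMIs Ccl2 was 1.99, Ccl7 1.35, Il19 0.26, Ptx3 2.74 and Saa3 1.12. Ccl2 was 0.056 in other members only, 0.39 with lesional members of Xist only and 2.44 in thinned endothelial-dominant members. Sele was -0.21 in other members only and Apln -0.59 with lesional members of Xist only. Gja4 was -0.40 with per-cell CPM, and -0.60 with it and -0.062 with thinning in endothelial-dominant members. In endothelial-dominant members of Y-linked UMIs only, Pi16 was -1.0, the fibroblast list -1.27 and the mural list -1.52, and after thinning Pi16 was -0.90 and the fibroblast list -0.35. The mural list was -0.67 in endothelial-dominant members and -0.94 there under median of ratios scaling. The T cell list was -0.85 without a floor on counts.

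No paired analysis was possible because each group is 1 library. Imiquimod members with Xist only were not run, since there were none. With 27 imiquimod cells of a median of 6270 UMIs, absence of a low gene there was not detectable at this depth.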
